A study of Mus musculus with 10 samples.

Results

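The 79 genes described here encode, with the exception of a pair named below, nuclear-encoded subunits of the oxidative phosphorylation complexes of the mitochondrial inner membrane. They were chosen by symbol alone from 33393 genes in the files: Nduf genes of the a, b, c, s and v series, Sdha to Sdhd, Uqcr genes, Cox4 to Cox8 genes and Atp5 genes, each with at least 1 transcript annotated as protein coding and with pseudogenes left out. Complex I had 35 members, complex II 4, complex III 8, complex IV 15 (Ndufa4 was counted there, since the protein it encodes is part of cytochrome c oxidase) and complex V, the ATP synthase, 15. Atp5s and Atp5sl matched by name only, are not built into the ATP synthase, and are described apart.

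RNA-seq was performed on haematopoietic stem cells (Lin- Sca-1+ c-Kit+ CD34- Flt3-) sorted from the bone marrow of individual C57BL/6 mice of age 8 weeks. Control mice carried floxed alleles of Regnase-1, encoded by Zc3h12a (Reg1flox/flox), and no Cre. The compared mice carried the same floxed alleles and Vav1-iCre (Vav1-iCre; Reg1flox/flox, named Reg1Δ/Δ), which recombines in all blood cells from fetal life on, so the allele was not removed from the sorted cells alone. The 10 libraries formed 2 experiments, with 3 controls and 3 Reg1Δ/Δ mice in the first and 2 of each in the second. Values are transcripts per 1000000 (TPM), the estimated share of all transcripts in a library after division by transcript length, and are therefore relative: the sequencing depth behind them is unknown, and fewer cells of a type cannot be told apart from less RNA per cell. A fold change is the difference in log2(TPM + 1), which understates the change of genes with low TPM.

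Oxidative phosphorylation passes electrons from NADH (complex I) and succinate (complex II) through complex III to complex IV, which reduces oxygen, and complex V uses the resulting proton gradient to make ATP. Each of these complexes except complex II is built from subunits of both the nuclear and the mitochondrial genome, so their assembly needs genes from both. Quiescent haematopoietic stem cells are known for relying little on this pathway, and progenitors leaving quiescence for relying on it more.

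The libraries differed in more than genotype. In experiment 1, 14299, 14307 and 14276 genes reached 1 TPM in controls, against 12048, 12023 and 12006 in the libraries labelled Reg1Δ/Δ. In experiment 2 these were 13366 and 13717 against 11398 and 11256. As TPM has a fixed total, fewer genes detected can raise the share of the others. Zc3h12a itself was higher in the libraries labelled Reg1Δ/Δ, at 3.54, 2.08 and 2.51 TPM against 1.83, 1.28 and 1.60 in experiment 1 and at 10.3 and 8.52 TPM against 1.48 and 6.07 in experiment 2 (log2 fold change 0.83 ± 0.28 SE, adjusted p = 0.0314). Adjusted p-values throughout are from limma, with Benjamini-Hochberg adjustment over all genes tested and the experiment as a covariate. A value for the whole gene does not resolve the floxed exons, so it checks neither the deletion nor the labels. Of 8 genes that mark stem cells (among them Kit, Ly6a, Procr and Hlf), 7 fell and Ly6a did not pass (0.92 ± 0.51, adjusted p = 0.155, and called higher in experiment 2 alone), and their summed TPM was 336 to 876 in controls and 181 to 565 in the labelled Reg1Δ/Δ libraries. All 8 B lineage genes tested fell, from a summed 183 to 1589 TPM to 2.75 to 24.0 TPM, and 8 of 10 neutrophil and monocyte genes fell, from 3220.0 to 11547 TPM to 336 to 1146 TPM. Of 6 erythroid genes Klf1, Car1 and Epor rose and Hbb-bs and Hba-a1 fell, with sums of 2185 to 5461 TPM against 6857 to 8877 TPM. Megakaryocyte genes fell in 4 of 4 tested, from 85.8 to 440.3 TPM to 18.4 to 95.2 TPM. The T and NK cell genes summed to 72.8 to 275 TPM against 36.3 to 144 TPM, and the only member tested fell. Within each experiment the summed TPM of the groups did not overlap on any of these 6 lists. Of all genes tested, 37.9% were called lower and 15.0% higher. Genes under a mean of 10 TPM had a median log2 fold change of -0.60, so falls were common among low genes. No gene on these 6 lists was at 0 in every library. The part that these shifts in marker genes and in the number of genes detected have in the results below was not tested.

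The subunit genes were higher as a class in the libraries labelled Reg1Δ/Δ. The summed TPM of all 79 members was 28450.2, 25219.6 and 29166 in the controls of experiment 1 and 39789, 37246 and 39935 in the labelled Reg1Δ/Δ libraries, a ratio of means of 1.41. In experiment 2 the sum was 23731 and 20067 TPM in controls and 29949.7 and 27872 TPM in the others, a ratio of 1.32. The groups did not overlap within either experiment. Of the 78 members tested, 58 rose and 3 fell at an adjusted p under 0.05 when both experiments were fitted together, against 15.0% and 37.9% of the 12874 genes tested. The median log2 fold change was 0.41 over the members and -0.25 over all genes tested. In 55 tested members every labelled Reg1Δ/Δ library was above every control of its own experiment, which was so for 12.7% of all genes tested, and in 1 tested member, Cox4i2, every such library was below, against 31.4%.

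The member left untested was Cox6a2, the heart and skeletal muscle form of a complex IV subunit, which was under the filter of 1 TPM in at least 5 libraries. Its TPM was 0.888, 1.52, 0.211, 9.57 and 3.59 in controls and at most 0.293 in the labelled Reg1Δ/Δ libraries, below every control of the same experiment. Cox7a1 and Cox4i2 passed the filter mainly through the control libraries, where they were higher. Their calls as lower are therefore no support apart from the filter.

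The size of this difference depended on how the libraries were put on 1 scale. Over all genes, the TPM scale gave 1933 higher and 4880 lower calls, of which 28.4% were higher. Quantile normalization gave 3861 and 2636 (59.4% higher), and median-of-ratios scaling 4334 and 3245 (57.2% higher). Of all genes tested, 30.0% were higher and 20.5% lower after quantile normalization, and 33.7% and 25.2% after median-of-ratios scaling. These scalings moved the median of all genes from -0.25 to 0.14 and 0.10. The median of the members was 0.30 after quantile normalization, with 43 higher and 1 lower, and 0.83 after median-of-ratios scaling, with 74 higher and 3 lower. Thus the members lay above the median gene by 0.67 on the TPM scale, by 0.16 after quantile normalization and by 0.72 after median-of-ratios scaling. On all 3 scales 41 members were called higher, and the share of all genes called higher on all 3 was not counted. Members are also abundant and short. Among all genes tested with a mean of at least 100 and under 1000 TPM the median was 0.23 with 40.5% higher, and among the 64 members in that class it was 0.44 with 84.4% higher. Genes with transcripts under 1000 bases had a median of -0.10 with 16.95% higher, and the 63 members of that length 0.41 with 74.6% higher. Within the 74 subunits at a mean of 10 TPM or more, the fold change was weakly related to length (Spearman's rho = -0.07) and to level (rho = 0.18), a description across genes that share libraries.

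**Figure D1:**
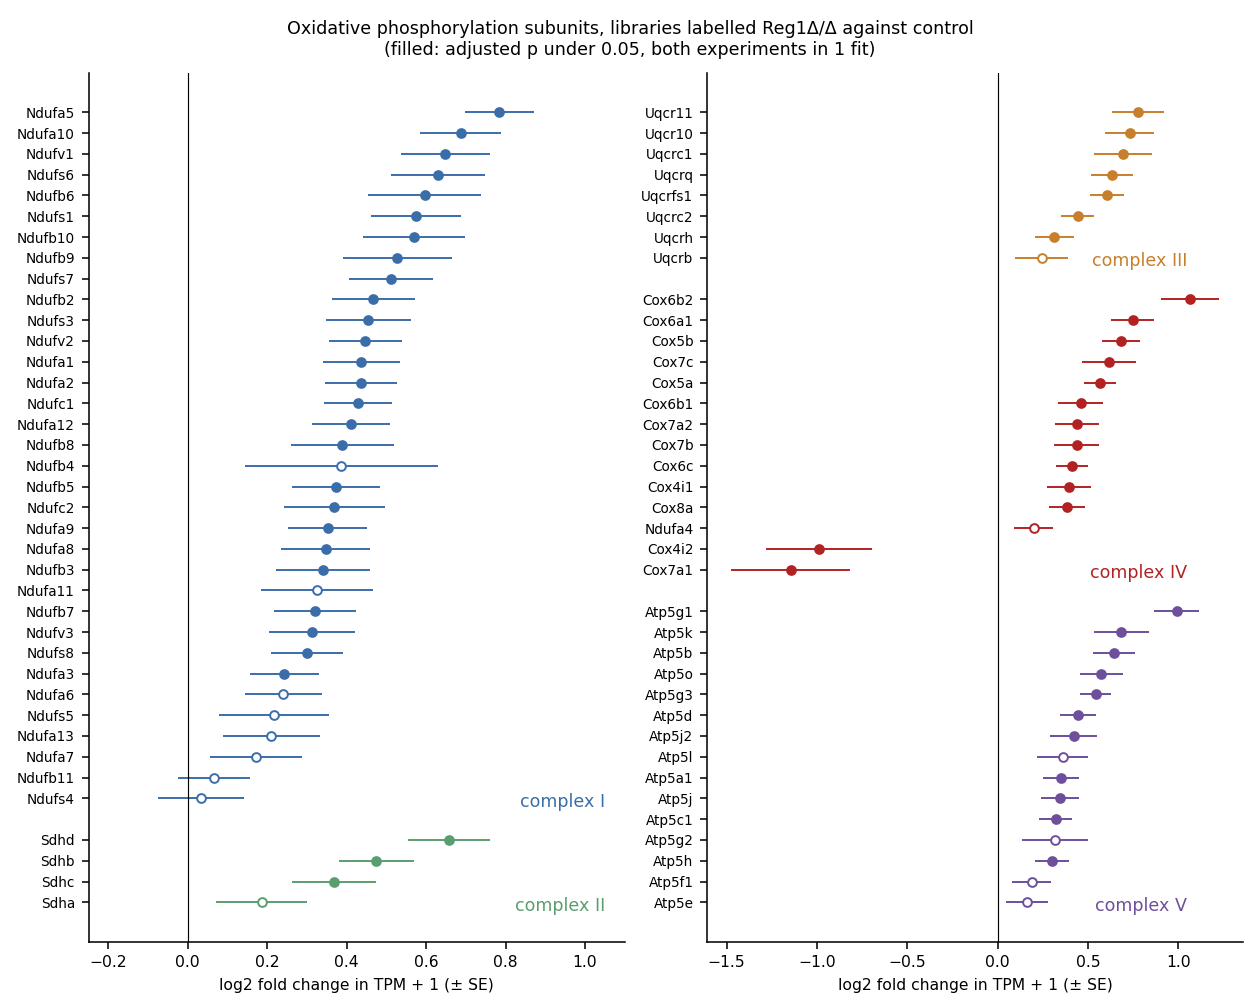
Log2 fold change (x axis, in TPM + 1, ± SE) of all but 1 of the tested subunits in the fit over both experiments, by complex. Filled points passed an adjusted p of 0.05. All but Cox4i2 and Cox7a1 lie to the right of 0, with Cox6b2 (1.06) and Atp5g1 (0.99) farthest.

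Because the members moved together, their promoters were searched for sites of factors known to act on respiratory genes. Promoter windows (250 bases before to 50 after the start, RefSeq, GRCm38.p6) were matched for 63 members, all of them subunits, in 68 windows. The NRF1 site GCGCANGCG was found on either strand in 30.9% of these windows and in 6.25% of all 32851 windows in the table. The ETS family core CCGGAAG, bound by GABPA among others, was found in 23.5% against 8.86%, and AAGATGGCG, a YY1 site, in 10.3% against 1.40%. The ERR site TCAAGGTCA was in 2.94% against 0.423%, and TATAAA in 8.82% against 13.6%. None of the searched motifs is contained in another. Of the 49 matched subunits that rose, 13 held the NRF1 site (26.5%), as did 7 of the 14 matched subunits that did not rise (50%). For the ETS core these were 14 (28.6%) and 2 (14.3%), and for the YY1 site 6 (12.2%) and 1 (7.14%). The windows compared against cover 27025 genes, among them genes not tested here. Promoters of genes with a like level or base content were not compared. A match describes letters in a window and shows no binding.

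The following windows are from the 3 risen subunits with the largest fold change among those whose site has 10 bases on each side within the 300-base promoter window. Ndufs6 (0.63) held a YY1 site too near the end of its window to be shown in this way. They show how these sites sit in the promoters, on the strand of the gene, with the motif or its reverse complement in capitals. For NRF1 they are those of Ndufa5 (chr6:24527698-24527726, minus strand), Uqcr11 (chr10:80406808-80406836, minus strand) and Cox6a1 (chr5:115349102-115349130, minus strand).
Ndufa5: tgtgtgagctGCGCAGGCGcaaatctacc
Uqcr11: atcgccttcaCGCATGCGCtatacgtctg
Cox6a1: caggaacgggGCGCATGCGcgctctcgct
For the ETS core they are those of Uqcr11 (chr10:80406871-80406897, minus strand), Cox6a1 (chr5:115348958-115348984, minus strand) and Atp5k (chr5:108434371-108434397, minus strand).
Uqcr11: tctctcctccCCGGAAGtagatgtcaa
Cox6a1: cccatttccgCTTCCGGcgcgccggtg
Atp5k: ctcagttgagCTTCCGGcgcgaaggtc
For YY1 they are those of Ndufs7 (chr10:80249463-80249491, plus strand), Ndufc1 (chr3:51408915-51408943, minus strand) and Atp5j2 (chr5:145191500-145191528, minus strand).
Ndufs7: ggccgaggccAAGATGGCGgcgctggcgg
Ndufc1: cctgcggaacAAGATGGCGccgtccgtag
Atp5j2: ccaggacttcAAGATGGCGtcactcggtg
Uqcr11, Cox6a1, Atp5k, Sdhd, Atp5h and Atp5l held both an NRF1 site and an ETS core. In the 3 YY1 windows the site began 23 to 25 bases after the transcription start.

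Complex I, the NADH dehydrogenase, had 26 of 35 subunits higher and none lower (median 0.39). Its summed TPM was 7506 ± 475 against 10389 ± 437 (SD, n = 3) in experiment 1 and 5881 ± 644 against 7433 ± 353 (SD, n = 2) in experiment 2. Among the 7 core subunits, the conserved part that moves the electrons, 6 rose (median 0.45), and among the 28 accessory subunits 20 rose (median 0.37).

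Ndufa5, an accessory subunit of the peripheral arm, had the largest rise of complex I. It was at 254, 234 and 239 TPM in the controls of experiment 1 against 425, 401 and 434, and at 111 and 113 against 206 and 179 in experiment 2. The groups were far apart in both experiments (log2 fold change 0.78 ± 0.09 SE, adjusted p = 5.98e-05). Ndufa10, an accessory subunit with a fold like that of nucleoside kinases, was at 873, 738 and 899 against 1289, 1247 and 1496 TPM, and at 99.97 and 106 against 177 and 158 TPM. Its rise of 0.69 ± 0.10 was nearly the same in each experiment, although its level differed between them. Ndufv1, the core subunit that binds NADH and flavin, was at 154, 126 and 174 against 223, 217 and 242 TPM, and at 126 and 109 against 201 and 189 TPM (0.65 ± 0.11, adjusted p = 0.000963).

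Not every subunit of complex I moved. Ndufs4, an accessory subunit needed for a stable enzyme, was at 142, 144 and 148 TPM in controls against 172, 144 and 142, and at 143 and 109.7 against 117 and 130.0. These groups overlapped in both experiments (0.03 ± 0.11, adjusted p = 0.815). Ndufb11, a membrane arm subunit, was at 56.8 to 62.0 against 56.7 to 65.5 TPM, and at 195 and 207 against 198 and 219 TPM (0.07 ± 0.09, adjusted p = 0.569). Ndufa7 did not pass either (0.17 ± 0.12, adjusted p = 0.243). After median-of-ratios scaling these 3 subunits were called higher, by 0.45, 0.48 and 0.59.

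Ndufb8 and Ndufa3, both accessory subunits, had the highest TPM of the complex after Ndufa10 in experiment 1, an order that did not hold in experiment 2. Ndufb8 was at 757, 606 and 828 against 1088, 926 and 981 TPM, and at 346 and 253 against 355 and 366 TPM (0.39 ± 0.13, adjusted p = 0.0295). Ndufa3 was at 477 to 547 against 582 to 633 TPM, and at 292 and 299.8 against 341 and 336 TPM (0.24 ± 0.09, adjusted p = 0.0387). Neither passed after quantile normalization (adjusted p = 0.0799 and 0.22).

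Complex II, succinate dehydrogenase, also acts in the tricarboxylic acid cycle and has no mitochondrially encoded subunit. Of its 4 genes Sdhb, Sdhc and Sdhd rose. Sdhd, a membrane anchor, was at 215, 191 and 222 against 334, 349 and 349.9 TPM, and at 271 and 217 against 385 and 337 TPM (0.66 ± 0.10, adjusted p = 0.000545). Sdhb, the iron-sulfur subunit, rose by 0.48 ± 0.09 (adjusted p = 0.00214), and Sdhc, the other anchor, by 0.37 ± 0.11 (adjusted p = 0.0149). Sdha, the flavoprotein that oxidizes succinate, did not pass. Its TPM was 1415, 1041 and 1195 against 1366, 1229.9 and 1309, which overlapped, and 129 and 148 against 179 and 164 (0.19 ± 0.11, adjusted p = 0.195). After median-of-ratios scaling Sdha was called higher, by 0.60.

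Complex III, the ubiquinol to cytochrome c reductase, had 7 of 8 nuclear subunits higher and the highest median of the 5 complexes (0.62). Its summed TPM was 2822 ± 256 against 4402 ± 163 (SD, n = 3) and 2867 ± 362 against 3826 ± 199 (SD, n = 2). Uqcr11, a small subunit, was at 658, 487 and 726 against 1152, 1063 and 1249.7 TPM, and at 605 and 463 against 828 and 764 TPM (0.78 ± 0.14, adjusted p = 0.00142). Uqcr10, another small subunit, rose by 0.73 ± 0.14 (adjusted p = 0.00147). Uqcrc1, a core protein that holds the complex together, was at 583, 341 and 595 against 835, 805 and 897 TPM, and at 206 and 207 against 328 and 287 TPM (0.70 ± 0.16, adjusted p = 0.00499).

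The other core protein, Uqcrc2, rose by 0.44 ± 0.09 (adjusted p = 0.00244), and Uqcrh, the hinge protein, by 0.31 ± 0.11 (adjusted p = 0.0315). Uqcrb, which binds ubiquinone, did not pass on the TPM scale. It was at 469, 703 and 498 against 637, 704 and 526 TPM and at 341 and 286 against 429.5 and 369 TPM, with overlap in experiment 1 (0.24 ± 0.15, adjusted p = 0.187). After median-of-ratios scaling Uqcrb was called higher, by 0.66. Whether complex III rose more than the others was not tested.

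Complex IV, cytochrome c oxidase, had 11 of 14 tested nuclear genes higher, 2 lower and 1, Ndufa4, not passing. Its sum was 6399 ± 637 against 9307 ± 605 TPM (SD, n = 3) and 5692 ± 782 against 7622 ± 286 TPM (SD, n = 2). Cox5b, a zinc-binding subunit, was at 687, 555 and 712 against 1154, 987 and 1106 TPM, and at 368 and 338 against 523 and 552 TPM (0.68 ± 0.11, adjusted p = 0.000489). Cox7b, the highest of the complex in experiment 1 but not in experiment 2, rose by 0.44 ± 0.13 (adjusted p = 0.0155), but not after quantile normalization (adjusted p = 0.0903). Ndufa4 was at 749 to 791 against 790.0 to 854 TPM, and at 465 and 381 against 586 and 499.8 TPM (0.20 ± 0.11, adjusted p = 0.14), and was called higher, by 0.62, after median-of-ratios scaling.

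Several complex IV subunits exist as paralogues whose balance differs between tissues, and these paralogues did not all move one way. Cox6b2, the form known from testis, had the largest rise of any member. It was at 88.0, 53.6 and 89.3 against 138, 149.7 and 144 TPM, and at 122 and 95.9 against 261 and 260.4 TPM (1.06 ± 0.16, adjusted p = 0.000417). Its general counterpart Cox6b1 was at 926 to 1233 against 1433 to 1700.2 TPM, and at 1024 and 827 against 1143 and 1116 TPM (0.46 ± 0.12, adjusted p = 0.0111).

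Cox6b2 therefore made up 7.39%, 5.48% and 6.76% of the Cox6b TPM in the controls of experiment 1 against 7.52%, 9.46% and 7.85%, and 10.6% and 10.4% against 18.6% and 18.9% in experiment 2. In experiment 1 the groups were hardly apart, and with protein-coding transcripts alone they overlapped (10.2% to 15.1% against 14.2% to 16.8%). The wider gap was in experiment 2, where coding transcripts gave 22.6% and 20.96% against 31.6% and 34.4%. These shares were not tested.

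Cox7a1 and Cox4i2 were the only tested subunits called lower. Cox7a1, the muscle form of subunit 7a, was at 2.50, 2.42 and 2.84 against 0.353, 0.129 and 1.31 TPM, and at 5.23 and 0.779 against 1.02 and 0.352 TPM (-1.14 ± 0.33, adjusted p = 0.0151). The groups were apart in experiment 1 and overlapped in experiment 2. Its widespread counterpart Cox7a2 rose by 0.44 ± 0.12 (adjusted p = 0.0124) and had at least 98.6% of the TPM of both genes in every library. With coding transcripts alone it had 92.1% to 93.3% in the controls of experiment 1 and 97.7% to 99.8% in the labelled Reg1Δ/Δ libraries. Cox4i2, the form of subunit 4 known from lung and from low oxygen, was at 1.65, 1.16 and 0.143 against 0.142, 0.0778 and 0 TPM, and at 1.78 and 3.72 against 0 and 1.26 TPM (-0.99 ± 0.29, adjusted p = 0.0182). Cox4i1, which held at least 99.4% of the TPM of both Cox4 genes, rose by 0.40 ± 0.12 (adjusted p = 0.0199). Both falls rest on a few TPM, and after quantile normalization they were at -0.31 (adjusted p = 0.412) and -0.26 (adjusted p = 0.423). Cox6a1, the general counterpart of the untested Cox6a2, rose by 0.75 ± 0.12 (adjusted p = 0.000599), and Cox8a by 0.38 ± 0.10 (adjusted p = 0.00871).

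Complex V had 11 of 15 genes higher and none lower (median 0.36), with sums of 9038 ± 574 against 12758 ± 254 TPM (SD, n = 3) and 6787 ± 793 against 9142 ± 576 TPM (SD, n = 2). Atp5b, the catalytic beta subunit and the highest of the complex in experiment 2 (Atp5j was higher in experiment 1), was at 2178, 1704 and 2229 against 3105, 2943 and 3378 TPM, and at 1122 and 940.4 against 1767 and 1501 TPM (0.65 ± 0.12, adjusted p = 0.00117). Atp5k, the small e subunit of the membrane part, was at 197, 217 and 279.5 against 371, 384 and 369 TPM, and at 658 and 399.5 against 813 and 795 TPM (0.69 ± 0.15, adjusted p = 0.00388). The epsilon subunit Atp5e (0.17 ± 0.12, adjusted p = 0.261) and the stalk subunit Atp5f1 (0.19 ± 0.11, adjusted p = 0.171) did not pass, but were called higher after median-of-ratios scaling, by 0.58 and 0.61. Atp5h, also of the stalk, rose by 0.30 ± 0.09 (adjusted p = 0.0214), but not after quantile normalization (adjusted p = 0.194).

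The ring of c subunits that turns in the membrane is encoded by Atp5g1, Atp5g2 and Atp5g3, whose mature proteins are the same. Atp5g1 was at 255, 188 and 271 against 510.0, 424 and 477 TPM, and at 361 and 303 against 681 and 634 TPM (0.99 ± 0.13, adjusted p = 0.00014). Atp5g3 was at 432 to 468 against 657 to 662 TPM and at 655 and 595 against 935 and 850.2 TPM (0.54 ± 0.09, adjusted p = 0.000524). Atp5g2, the least abundant, was at 32.1, 23.6 and 26.5 against 28.8, 22.5 and 33.0 TPM, which overlapped, and at 31.7 and 23.0 against 49.1 and 43.4 TPM (0.32 ± 0.18, adjusted p = 0.175). After quantile normalization and after median-of-ratios scaling Atp5g2 was called higher, by 0.59 and 0.72. Atp5g1 held 28.9% to 35.4% of the c subunit TPM in controls against 38.4% to 42.5% in experiment 1, and 34.5% and 32.9% against 40.9% and 41.5% in experiment 2. The groups were apart in both experiments, and the shares were not tested.

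**Figure D2:**
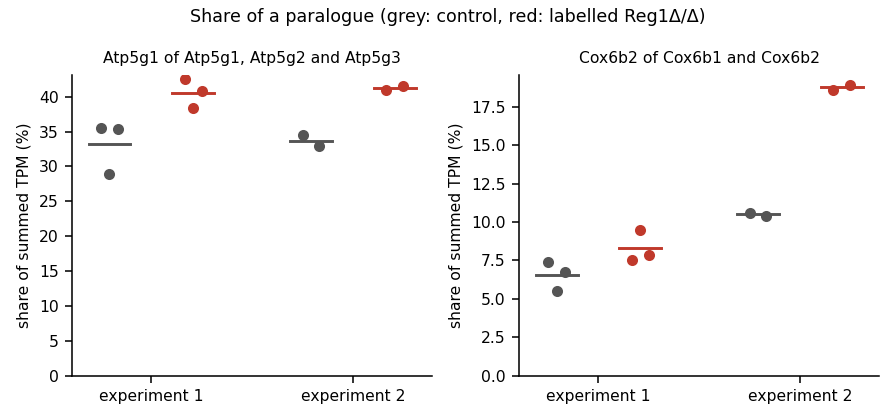
Share (y axis, %) of Atp5g1 among the 3 genes of the c subunit and of Cox6b2 among both Cox6b genes, 1 point per library and a line at the mean. Atp5g1 is at 28.9% to 35.4% in controls and at 38.4% to 42.5% in the labelled Reg1Δ/Δ libraries, while Cox6b2 is clearly apart only in experiment 2.

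**Figure D3:**
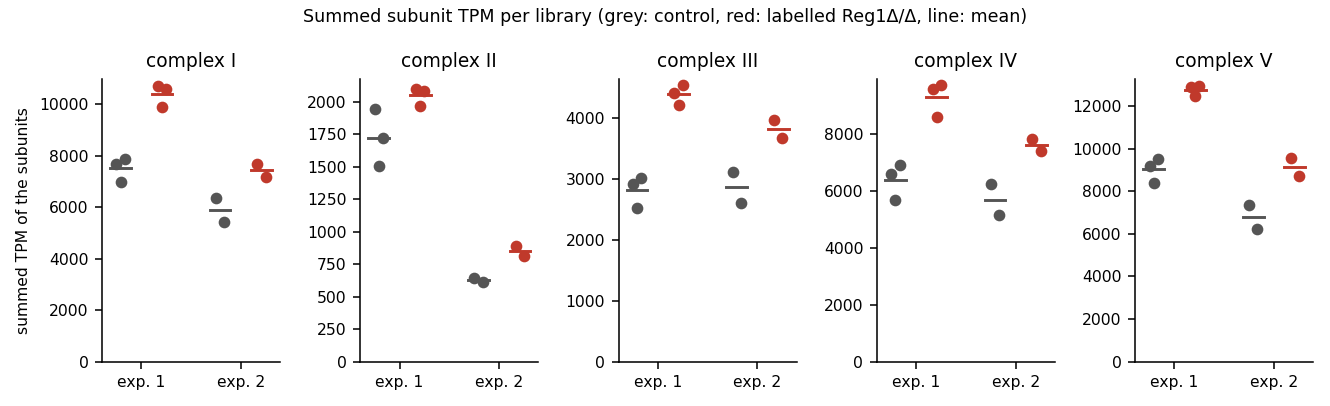
Summed TPM (y axis) of the nuclear subunits of each complex, 1 point per library and a line at the mean of the group. Controls and labelled Reg1Δ/Δ libraries do not overlap within an experiment for any complex, and complex II differs 2.75-fold between the controls of the experiments.

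Atp5sl and Atp5s, which share only the name, did not follow the subunits. Atp5sl, a factor known from complex I assembly, was at 34.8, 35.3 and 34.0 against 12.5, 11.3 and 10.6 TPM in experiment 1, far apart, and at 23.4 and 44.1 against 23.9 and 19.96 TPM in experiment 2, with overlap (-1.13 ± 0.22, adjusted p = 0.00204). It was the only member called lower on all 3 scales. Atp5s was at 101.1, 87.3 and 77.5 against 69.3, 68.4 and 75.3 TPM and at 15.4 and 5.95 against 11.7 and 12.3 TPM (-0.07 ± 0.23, adjusted p = 0.807).

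Within experiment 1 alone, 47 of 78 members rose and 2 fell, against 12.0% and 38.3% of all genes tested, with a median of 0.45 over the members and -0.33 over all genes. Leaving out 1 library left 21 to 39 higher, with 21 without replicate 1 and 23 without replicate 3 of the labelled Reg1Δ/Δ group. The share of all genes called in these smaller fits was not counted, so a loss among members cannot be told from a general loss. Within experiment 2, with 2 mice per group, 5 members rose (Cox6b2, Atp5g1, Ndufa5, Ndufa10 and Cox5b) and 0 fell, against 3.51% and 12.3% of all genes tested, with medians of 0.36 and -0.12. At an unadjusted p under 0.05, 34 members were higher in experiment 2 and 0 lower, against 11.9% and 24.9% of all genes tested. Leaving out any of the 4 libraries of experiment 2 leaves a group of 1 mouse with no spread of its own. Such a fit cannot decide whether these 5 calls hold.

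The effect did not differ detectably between the experiments. In a test of the difference, 0 of 78 members passed, against 0.443% of all genes. The lowest adjusted p was 0.295, for Atp5sl, and only Atp5sl and Atp5g2 had an unadjusted p under 0.05, against 12.5% of all genes tested. Across the 76 tested subunits the fold changes of the experiments had a Pearson's r of 0.84, and of 0.67 over the 74 at a mean of 10 TPM or more, as a description across genes that share libraries.

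**Figure D4:**
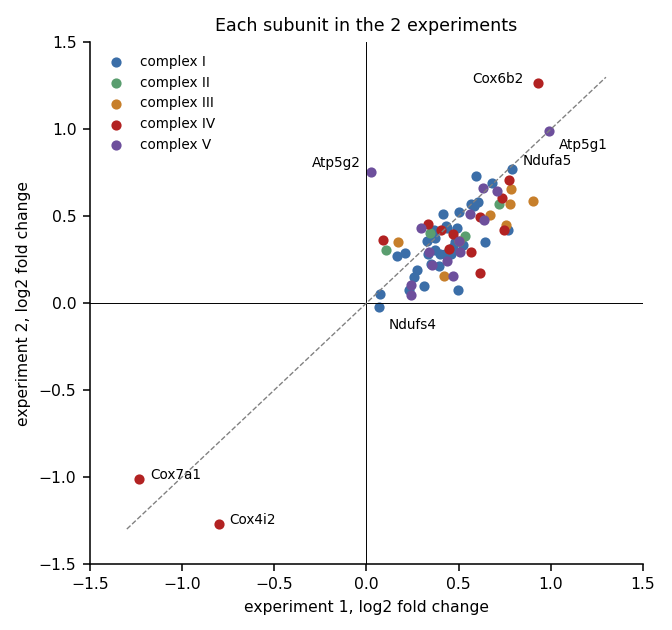
Log2 fold change of each tested subunit in experiment 1 (x axis) and experiment 2 (y axis), coloured by complex, with the line of equal change dashed. Most points lie above 0 on both axes, with Cox6b2 (0.93 and 1.26) and Atp5g1 (0.99 and 0.99) farthest out and Cox7a1 and Cox4i2 below 0 on both.

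The experiments differed in which transcripts carried the signal. Transcripts annotated as protein coding held 51.2% to 52.4% of the members' summed TPM in experiment 1 and 91.6% to 93.3% in experiment 2, in both groups alike. In experiment 1, 21 of 79 members had less than 50% of their TPM in coding transcripts, and in experiment 2 3 members had. Short transcripts annotated as non-coding held much of the remainder. A processed transcript of Atp5j of 203 bases had a mean of 2335 TPM in experiment 1 and 5.16 TPM in experiment 2. For Sdha, a retained-intron transcript of 239 bases had 1036 TPM in experiment 1 and was listed at 0 in experiment 2, and Ndufa10 had 817 and 18.7 TPM in a processed transcript of 248 bases. The coding transcript of Sdha of 2900 bases was at 177 and 154 TPM, so nearly all of the gap between the experiments lay in the short one. Cox7b was the extreme, with 1.24% of its TPM in coding transcripts in experiment 1.

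Levels of single subunits are therefore not comparable between the experiments, and neither are the orders of abundance within a complex. The fold changes were less touched. Counting coding transcripts alone, 57 members were higher and 3 lower with a median of 0.43, and 55 were higher both ways. Of all genes tested on coding transcripts, 19.2% were higher and 39.1% lower, with a median of -0.19. Atp5j (0.14, adjusted p = 0.256) and Ndufa3 (0.23, adjusted p = 0.0769) no longer passed, nor did Cox7c (0.62 with all transcripts, 0.20 with coding ones, adjusted p = 0.234), a small complex IV subunit named here after its values were seen. Atp5l passed with coding transcripts, by 0.29, and not with all transcripts on the TPM scale. Ndufs4 was at -0.41 with coding transcripts alone, which did not pass (adjusted p = 0.113). Over all transcripts Atp5l, a subunit of the membrane part of complex V, was at 0.36 ± 0.14 (adjusted p = 0.0554), and at 0.78 and called higher after median-of-ratios scaling. The members lie on 19 chromosomes in GENCODE M21 (GRCm38), with at most 8 on 1 chromosome. Of the 79, 28 overlap a gene on the other strand, as Atp5j does Gabpa, and 12 another gene entry on their own strand, and the library kit does not mark strand.

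Other genes of the pathway were taken from fixed lists. Of 8 further genes of the respiratory chain and its regulation, 6 rose and 1 fell. Cyc1, the nuclear cytochrome c1 of complex III, was at 368, 275 and 381 against 595, 573 and 640.4 TPM, and at 153 and 108 against 240.4 and 237 TPM (0.85 ± 0.13, adjusted p = 0.000476). Atpif1, the inhibitor of ATP synthase running in reverse, rose by 0.92 ± 0.16 (adjusted p = 0.00101). Cox7a2l, known from work on respiratory supercomplexes, was lower, at 67.0 to 75.5 against 49.1 to 52.0 TPM and at 428 and 441 against 288 and 266 TPM (-0.54 ± 0.09, adjusted p = 0.00068), without overlap in either experiment. It was not called after median-of-ratios scaling. Higd2a was at -0.14 ± 0.11 (adjusted p = 0.325).

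Of 48 assembly factors, which build the complexes without staying in them, 9 rose and 2 fell, with a median of 0.14. These 9 are 18.8%, near the 15.0% of all genes tested. The median was 0.38 after quantile normalization, with 22 higher where 30.0% of all genes were, and 0.54 after median-of-ratios scaling, with 34 higher where 33.7% of all genes were. Cox17, the copper chaperone of complex IV, was at 177, 217 and 225 against 451, 498 and 405 TPM, and at 262 and 172 against 348 and 362 TPM (0.97 ± 0.15, adjusted p = 0.000461). Ndufaf4, a complex I assembly factor, rose by 0.74 ± 0.13 (adjusted p = 0.000909). Tmem126b, another complex I factor, fell by 0.53 ± 0.11 SE on the log2 scale (adjusted p = 0.00245), but stood at 0.074 after quantile normalization, and Cox14, a complex IV factor, fell by 0.42 ± 0.09 (adjusted p = 0.00324). Neither was called lower after median-of-ratios scaling (adjusted p = 0.238 and 0.987).

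No subunit encoded in mitochondrial DNA passed the test. In the limma fit over both experiments 0 of 13 were higher and 0 lower, with 1, mt-Nd3, at an unadjusted p under 0.05. Their median was -0.42, -0.50 after quantile normalization and -0.00 after median-of-ratios scaling, where 1 was called higher. Their summed TPM was 30248, 45658 and 34783 against 38075, 48638 and 28738 in experiment 1, and 17092 and 39330.0 against 23699 and 7709.7 in experiment 2. These groups overlapped in both experiments, and libraries of 1 group differed up to 3.07-fold. mt-Co1, the catalytic subunit of complex IV, was at -0.80 ± 0.38 (adjusted p = 0.104), mt-Nd5 of complex I at -0.67 ± 0.37 (adjusted p = 0.156), and mt-Nd3 at 0.73 ± 0.31 (adjusted p = 0.0763). A difference between the nuclear and mitochondrial lists was not tested.

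Of the lists that feed or supply the chain, genes of the mitochondrial ribosome rose in 59 of 77 cases (median 0.48), where 15.0% of all genes tested rose, with Mrpl35 (1.12 ± 0.18) and Mrpl52 (0.99 ± 0.21) foremost. Mrpl24 was at -0.10 ± 0.11 and Mrpl44 at -0.01 ± 0.09, and after median-of-ratios scaling these were called higher by 0.31 and 0.39. Genes of mitochondrial import rose in 14 of 17 (median 0.58), led by Timm10 (0.92 ± 0.13) and Tomm40, the import pore (0.87 ± 0.14). The tricarboxylic acid cycle and pyruvate dehydrogenase list had 11 of 17 higher (median 0.30), led by citrate synthase, Cs (0.78 ± 0.13), and Mdh2 (0.76 ± 0.12). Ogdh was at -0.07 ± 0.15, and at 0.34 and called higher after median-of-ratios scaling. With that scaling 75 genes of the mitochondrial ribosome, 17 of import and 17 of the cycle were higher, where 33.7% of all genes were.

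Among regulators of respiratory genes, 1 of 14 tested was higher and 1 lower, with a median of -0.01, where 15.0% of all genes tested were higher and 37.9% lower. The median was 0.29 after quantile normalization and 0.34 after median-of-ratios scaling, against 0.14 and 0.10 over all genes. Myc was at 225, 152 and 170.0 against 229.8, 287 and 254 TPM, and at 189 and 189.5 against 276 and 233 TPM (0.47 ± 0.13, adjusted p = 0.0124). Gabpb1, the partner of GABPA at ETS sites like those printed above, was at 48.7, 59.0 and 54.2 against 28.8, 24.6 and 26.3 TPM, and at 41.5 and 38.9 against 23.6 and 19.1 TPM (-0.95 ± 0.10, adjusted p = 5.37e-05), without overlap. Gabpa was at -0.29 ± 0.18 (adjusted p = 0.203) and Pprc1, a PGC-1 related coactivator, at 0.41 ± 0.21 (adjusted p = 0.126). Ppargc1a was not tested, at 0.134 to 2.09 TPM in controls and at most 0.057 in the others.

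Among lists from outside the mitochondrion, the cytosolic ribosome had 20 of 77 higher (median 0.24), with Rpl27 at 0.70 ± 0.11, where 15.0% of all genes tested were higher. In experiment 1, 37 were higher and 1 lower (median 0.37), where 12.0% of all genes were higher. In experiment 2, 0 were higher and 1 lower (median 0.0049), where 3.51% of all genes were higher. After median-of-ratios scaling 74 were higher in the fit over both experiments, as were 33.7% of all genes. Rps27 (0.97 ± 0.82) and Rpl3 (-0.95 ± 0.55) did not pass. Genes of S phase and mitosis were higher in 7 of 15 (median 0.30), among them Rrm2 (0.62 ± 0.20) and Ccnb1 (0.49 ± 0.17), whereas Mki67 (-0.39 ± 0.18) and Top2a (-0.14 ± 0.13) did not pass. After quantile normalization 0 of these 15 were higher, where 30.0% of all genes were, and after median-of-ratios scaling 13, where 33.7% were.

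**Figure D5:**
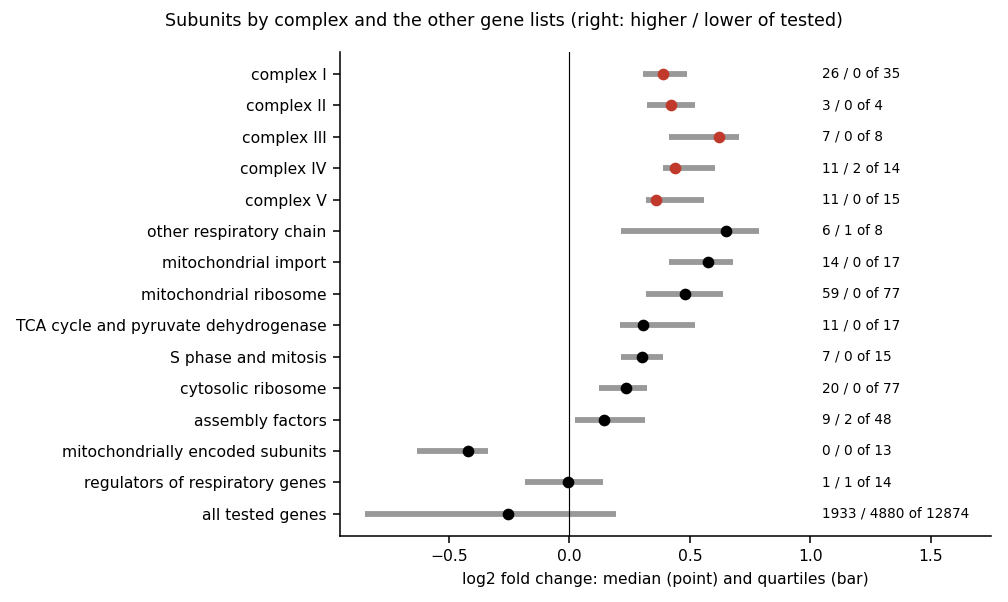
Median (point) and quartiles (bar) of the log2 fold change (x axis) for the tested genes of each complex (red), the other lists (black) and all 12874 genes tested, with the numbers higher and lower at the right. The 5 complexes have medians of 0.36 to 0.62, the mitochondrially encoded subunits -0.42 and all genes -0.25.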

How the data were processed

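RNA was extracted from sorted haematopoietic stem cells of individual mice, and libraries were made with a SMART-Seq kit, which does not mark strand. The authors quantified transcripts with Salmon 0.9.1 (mm10, per the submitters' processing notes) and deposited log2(TPM + 1) values per transcript for each library. These were turned back to TPM and summed per gene. The deposited log2 values hold no counts, so the depth is unknown and no counting interval is given. The file of the Reg1Δ/Δ replicate 2 of experiment 2 carries the column name of replicate 1 with other values, and GEO's record of the sample was followed.

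Genes reaching 1 TPM in 5 or more of the 10 libraries entered the fits, made on log2(TPM + 1) (pseudocount 1) by limma 3.58.1 under R 4.3.3. A joint fit covered both experiments with the experiment as a covariate, others each experiment alone, and another the difference between them. Benjamini-Hochberg adjustment covered all genes tested. Replicates are separate mice. The procedure was tested on simulated data. Members, gene lists, motifs and tests were chosen with earlier results of these data known. The genes named were, for each complex, the 3 highest by mean TPM and the 3 at either end of the fold changes, all members of paralogue sets, untested members, and the 2 at either end of each other list. Cox7c and Ppargc1a were chosen after their values were seen. A few genes are not reported here. Quantile normalization, median-of-ratios scaling, other filters and pseudocounts, coding transcripts alone, a replicate block, other variance models and leaving out each library were tried.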

Additional observations from a re-analysis of the deposited data

Results flagged for a closer look

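Rpl3, which encodes a protein of the large cytosolic ribosomal subunit, was the only named gene whose difference between the libraries labelled Reg1Δ/Δ and controls itself differed between the experiments (limma, adjusted p of the difference = 0.00851). In experiment 1 it was at 381, 345 and 565 TPM in controls against 629, 569 and 448 TPM (0.37 ± 0.23 SE on the log2 scale, adjusted p = 0.221), with overlap. In experiment 2 it was at 1272 and 1198 against 164 and 156 TPM (-2.94 ± 0.08, adjusted p = 0.0137).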

How the results depend on the processing

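Of 859 values of 42 named members under the alternatives, 784 kept their side of the threshold, 57 lost the call, 18 gained it and 0 turned sign with a call, and 45 of the 58 risen members were called without each library in turn. Among the 784, 9 values of Ndufs4 and Atp5s, which did not pass, turned sign. In each setting tried at least 73 members had a positive fold change. Members called higher over both experiments were 16 with no experiment covariate (5.56% of all genes tested), and members called lower were 1 with a filter of 1 TPM in every sample and 1 after quantile normalization. In experiment 1, 1 was lower under each of these, 4 were lower with coding transcripts alone or rescaled, and 72 were higher after median-of-ratios scaling (30.0% of all genes tested). In experiment 2, members called higher were 0 with no filter on low values, where 0.539% of all genes were (26 at an unadjusted p under 0.05, against 5.05%), 2 with a pseudocount of 0.1 (2.91% of all genes tested) or quantile normalization (7.86%), 33 with median-of-ratios scaling (14.7%), 12 with the 50 highest genes removed (5.53%), 9 with a variance trend (3.98%) and 16 with 4 group means in 1 fit (6.60%).

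Leaving out each library in turn left 46 to 61 higher and 3 to 4 lower over both experiments, and 21 to 39 higher and 2 to 3 lower in experiment 1. The shares of all genes called in these fits were not counted. Without a library of experiment 2, a group there has 1 mouse. Such fits decide neither the calls within experiment 2 nor a difference between the experiments. Named genes of the other lists whose sign turned with a call on either side were Ogdh (0.34), Mrpl24 (0.31) and Mrpl44 (0.39) after median-of-ratios scaling and Tmem126b (0.074) after quantile normalization, and 7 genes, Top2a, Higd2a and Gabpa among them, turned sign in some setting with no call on either side. Same-numbered samples shared little (correlations of deviations of 0.03, 0.18 and 0.07 in experiment 1 and -0.05 in experiment 2), so the numbers do not pair them. A replicate block gave 55 higher and 3 lower over both experiments, against 13.2% and 35.3% of all genes tested. It gave 42 and 2 in experiment 1, against 11.1% and 37.2%. In experiment 2 it gave 0 higher, where 0 of all genes tested were called (18 members higher at an unadjusted p under 0.05, against 7.92%). The cause of these changes was not tested. With no counts, the precision of low genes such as Cox7a1 and Cox4i2 cannot be given.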
